A study of Rattus norvegicus with 9 samples.

Results

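The fibril collagen genes Col1a1, Col1a2, Col3a1 and Col5a1 were followed through all 9 groups of a rat patellar enthesis study measured by RT-qPCR array. The 4 genes were chosen by symbol from 84 target genes, by a rule that used none of their values. Earlier results of these data were known when they were chosen. The plate of 96 wells also holds 5 housekeeping genes and 7 control wells. Male Sprague Dawley rats had a defect made at the tibial insertion of the patellar tendon and filled with a biphasic silk fibroin scaffold. The scaffold had a mixed transition between its bone-like and tendon-like ends in S-MT and an abrupt one in S-AT. In ED the defect was left empty and the tendon sutured back over it. In TC the tendon was cut across near the enthesis and the bone left undamaged; the label names a tendon-to-tendon suture, and the methods name no treatment. Each of these was sampled at 12 and 4 weeks after surgery, and native tissue was the uninjured enthesis of the other leg, labelled 4 weeks. Tissue was taken after mechanical testing. The design names 8 rats per group and time, but each gene has a single deposited value in a group. Whether that value is 1 rat, a mean or a pool of RNA is not stated, so no error between animals, no SD and no p-value could be computed, and every difference given here is between single values.

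Collagen types I, III and V assemble together into the fibrils that carry load in tendon and ligament. Col1a1 and Col1a2 encode the alpha-1 and alpha-2 chains of type I collagen, the main collagen of tendon and bone. Col3a1 encodes the chain of type III collagen, which is abundant in early repair tissue and scar. Col5a1 encodes a chain of type V collagen, a minor part of the fibril that starts fibril assembly and limits fibril width. The threshold cycle (Ct) is the PCR cycle at which a well crosses the detection threshold; a lower Ct means more template. Fewer cells of a type and less RNA per cell cannot be told apart in such tissue samples.

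Promoter windows from RefSeq (build GRCr8) are shown for the members that have one, Col1a2 and Col5a1. A link between these windows and the folds was not tested. Capitals mark the matches to the motifs searched on both strands, which were the CCAAT box, the TATA motif TATAAA, the Sp1 motif GGGCGG and the Smad motif CAGACA. The Col1a2 window lies at chr4:33518307-33518606 and the Col5a1 window at chr3:31606630-31606929, both on the plus strand.
Col1a2: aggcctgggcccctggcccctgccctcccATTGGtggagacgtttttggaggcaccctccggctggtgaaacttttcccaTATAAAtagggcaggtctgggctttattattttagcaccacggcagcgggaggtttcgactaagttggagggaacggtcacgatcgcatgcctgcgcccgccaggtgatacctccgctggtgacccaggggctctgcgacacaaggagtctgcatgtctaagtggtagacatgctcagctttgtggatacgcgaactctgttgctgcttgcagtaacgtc
Col5a1: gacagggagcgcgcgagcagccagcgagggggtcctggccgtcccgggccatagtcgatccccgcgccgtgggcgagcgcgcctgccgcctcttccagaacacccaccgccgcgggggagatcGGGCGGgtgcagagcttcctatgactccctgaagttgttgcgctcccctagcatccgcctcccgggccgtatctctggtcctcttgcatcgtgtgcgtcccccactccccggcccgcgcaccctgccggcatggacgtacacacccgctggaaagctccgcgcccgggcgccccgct
The Col1a2 window holds CCAAT on the minus strand, read as ATTGG above, and TATAAA on the plus strand. The Col5a1 window holds GGGCGG on the plus strand. Of 33469 windows of the same length, 37.5% hold CCAAT, 14.2% TATAAA, 33.1% GGGCGG and 21.1% CAGACA. G and C make up 57% of the Col1a2 window and 72% of the Col5a1 window, against a median of 51.7% over the windows. A match is a run of letters and no measured site.

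Several facts of the plates bear on these values. The genomic DNA control well, named from the usual layout of such plates, crossed at Ct 30.9 in S-MT, 35.7 in S-AT, 29.2 in ED and 30.4 in TC at 12 weeks. At 4 weeks it crossed at 34.0, 32.5, 34.0 and 36.5 in S-MT, S-AT, ED and TC, and in native tissue at 34.9. In ED at 12 weeks 40 of the 84 targets lay within 1 cycle of it and 6 were 1 cycle or more ahead. In TC at 12 weeks 6 lay within 1 cycle of that well and 1 was 1 cycle or more ahead. Most targets of both groups thus led the well by less than 1 cycle or lay behind it. The other control wells were named from the same layout too. The 3 positive PCR control wells averaged Ct 26.0 in S-AT at 12 weeks, against 19.1 to 21.9 in the other groups. Repeat wells of one control on a plate had an SD of 0.014 to 0.088 cycles over 18 triplicates, which is well-to-well error and not the spread between animals. The bone markers Bglap, Sp7, Alpl, Phex and Sost were at or under Ct 35 in 2 of 5 cases in S-MT, 5 of 5 in ED, 3 of 5 in TC and 0 of 5 in S-AT at 12 weeks, and in 0 of 5 in each 4-week group and in native tissue. Their summed level, relative to the mean of Ldha and Rplp1, was 0.0119 in S-MT, 0.338 in ED and 0.137 in TC at 12 weeks. Col2a1 and Comp, which mark cartilage, were at or under 35 in every group, and the summed level of the 4 cartilage markers ran from 0.0436 in S-AT at 12 weeks to 2.32 in ED at 4 weeks, against 0.400 in native tissue. The vessel markers Flt1, Vcam1 and Icam1 and the myeloid markers Itgam and Tnf were all past 35 in native tissue and in TC at 4 weeks, and all 5 were at or under 35 in S-MT and ED at 12 weeks. Of all 84 targets, 18 were past 35 or undetermined in S-MT, 40 in S-AT, 1 in ED and 33 in TC at 12 weeks. At 4 weeks the number was 33 in S-MT, 28 in S-AT, 42 in ED and 60 in TC, and in native tissue 64. The marker calls were not separated from this detection over the whole array or from genomic DNA. The tendon markers Scx, Tnmd and Mkx are not on the array. The part of these differences in the collagen values was not tested.

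The type I and III collagens were among the earliest targets in every group and Col5a1 came later. Col1a2 ranked 1 or 2 of 84 by Ct, Col3a1 2 to 4, Col1a1 3 to 8 and Col5a1 14 to 27, and in native tissue Col5a1 at rank 21 was past the cut-off. Ranks compare assays of different efficiency and are no ratio of transcript numbers.

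Col1a1 crossed at Ct 24.9 in S-MT, 28.9 in S-AT, 27.5 in ED and 31.2 in TC at 12 weeks. Its 4-week Ct stood at 26.5 for S-MT, 26.4 for S-AT, 27.4 for ED and 30.7 for TC, and in native tissue at 32.0. Before any correction for the amount of template, native tissue had the latest Col1a1 and S-MT at 12 weeks the earliest of the 9 groups. Relative to the mean of Ldha and Rplp1, the Col1a1 level was lowest in S-AT at 12 weeks, at 0.109 against 0.253 in native tissue. Col1a2 crossed at Ct 22.1 in S-MT, 25.9 in S-AT, 24.0 in ED and 27.9 in TC at 12 weeks. At 4 weeks it crossed at 23.1 in S-MT, 22.6 in S-AT, 24.1 in ED and 26.5 in TC, and in native tissue at 27.9. Its Ct in TC at 12 weeks lay within 0.1 cycle of native tissue, before any correction for the amount of template. The well-to-well SD holds within a plate and does not measure the error of a difference between groups.

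Col3a1 crossed at Ct 23.3 in S-MT, 27.7 in S-AT, 27.4 in ED and 30.5 in TC at 12 weeks. Its 4-week Ct stood at 24.9 for S-MT, 24.8 for S-AT, 25.6 for ED and 28.8 for TC, and in native tissue at 29.6. TC at 12 weeks had the latest Col3a1 of the 9 groups. Relative to the mean of Ldha and Rplp1, the Col3a1 level was lowest in S-AT at 12 weeks, at 0.258 against 0.578 in TC at 12 weeks. Col5a1 crossed at Ct 28.4 in S-MT, 33.4 in S-AT, 29.3 in ED and 33.6 in TC at 12 weeks. At 4 weeks it crossed at 30.0 in S-MT, 29.9 in S-AT, 30.6 in ED and 34.1 in TC. In native tissue it crossed at 36.3, past the cut-off of 35, so its fold over native is a lower bound.

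**Figure D1:**
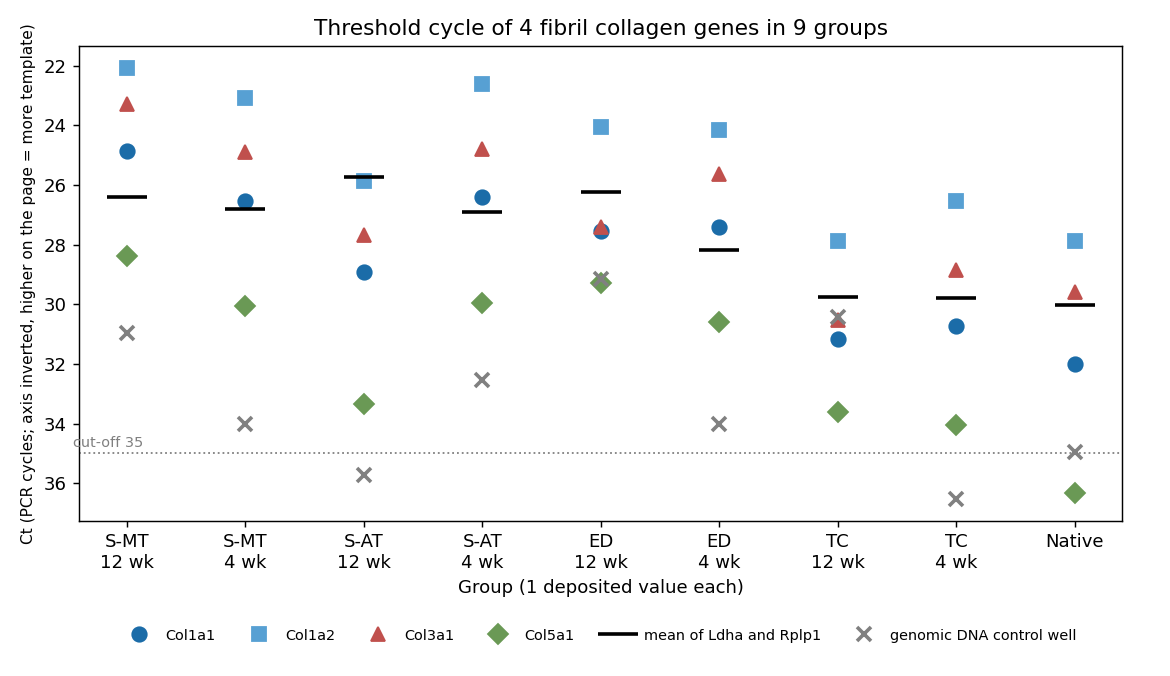
Ct in PCR cycles (vertical axis, inverted so that more template is higher) of Col1a1, Col1a2, Col3a1 and Col5a1 in 9 groups, 1 deposited value each, with bars for the Ldha and Rplp1 mean and the genomic DNA control well as crosses. Col1a2 is the earliest of the 4 in every group, and in TC at 12 weeks Col1a1, Col3a1 and Col5a1 lie later than the genomic DNA well.

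The margin over the genomic DNA well differed between groups. At 12 weeks Col1a1 came ahead of it by 6.08 cycles in S-MT, by 6.81 in S-AT and by 1.62 in ED, and 0.76 cycles behind it in TC. Col3a1 came ahead by 7.67 cycles in S-MT, by 8.05 in S-AT and by 1.76 in ED, and 0.12 cycles behind in TC. The lead of Col5a1 was 2.56 cycles in S-MT and 2.38 cycles in S-AT, but 0.12 cycles behind in ED and 3.18 behind in TC. Col1a2 was ahead of the well in every group, by 2.55 cycles in TC at 12 weeks at the least.

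The first comparison asked how far the repaired tissue stood from the native enthesis. Fold was 2 to the power of the Ct difference after subtraction of the mean Ct of Ldha and Rplp1, the authors' reference genes, and a gene counts as higher or lower at 2-fold or more. All 4 collagens were higher than native in S-MT at 12 weeks, where 30.3% of targets with a fold were higher. That share includes bounds from targets past the cut-off in native tissue; of the 20 targets measured on both sides, the collagens included where measured, 11 were higher. They were 11.4-fold higher for Col1a1, 4.58-fold for Col1a2, 6.43-fold for Col3a1 and at least 7.88-fold for Col5a1. All 4 were also higher in S-MT at 4 weeks (background 29.4%), S-AT at 4 weeks (25%) and ED at 4 weeks (33.3%). Of the 20 targets measured on both sides at 4 weeks, S-MT had 10 higher, S-AT 9 and ED 11. In S-MT at 4 weeks, Col1a1 was 4.80-fold, Col1a2 3.03-fold, Col3a1 2.79-fold and Col5a1 at least 3.33-fold over native. In S-AT at 4 weeks, Col1a1 was 5.58-fold, Col1a2 4.39-fold, Col3a1 3.18-fold and Col5a1 at least 3.80-fold over native. In ED at 4 weeks, Col1a1 was 6.79-fold, Col1a2 3.73-fold, Col3a1 4.38-fold and Col5a1 at least 5.93-fold over native. In TC at 4 weeks Col1a1 and Col1a2 were higher, by 2.06-fold and 2.15-fold, against 22.2% of targets, while Col3a1 was 1.41-fold and Col5a1 at least 1.62-fold over native. Both calls in TC were lost with Rplp1, Actb, B2m or Hprt1 alone, and with Rplp1 the log2 folds were -0.13 for Col1a1 and -0.068 for Col1a2.

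At 12 weeks the other groups stood apart from S-MT. In S-AT 3 collagens were lower than native, at 0.432-fold for Col1a1, 0.206-fold for Col1a2 and 0.191-fold for Col3a1, and 35.6% of targets were lower. A target past the cut-off in native tissue cannot be called lower, and of the 19 targets measured on both sides 15 were lower. Col5a1 in S-AT at 12 weeks has a bound of at least 0.159-fold, which shows no direction. In ED at 12 weeks Col3a1 was lower at 0.328-fold, where 4.82% of targets were lower. Of the 20 targets measured on both sides in ED at 12 weeks, 4 were lower. Col5a1 in the same group was higher, at least 3.79-fold, where 41% of targets were higher, and it lies at the level of the genomic DNA well there. Col1a1 at 1.58-fold and Col1a2 at 1.04-fold were within the limit in ED at 12 weeks. In TC at 12 weeks Col3a1 was lower at 0.429-fold (background 5.88%) and Col5a1 higher by at least 2.18-fold (29.4%), both later than the genomic DNA well. Of the 20 targets measured on both sides in TC at 12 weeks, 3 were lower. Col1a1 at 1.47-fold and Col1a2 at 0.836-fold were within the limit in that group.

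**Figure D2:**
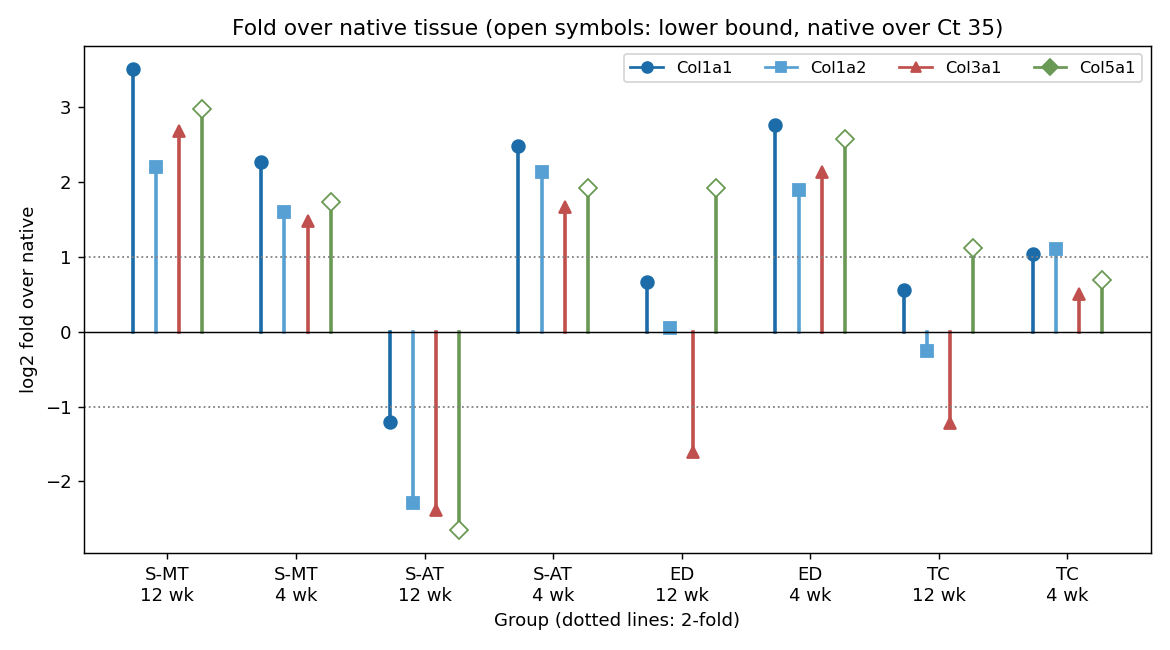
Log2 fold over native tissue (vertical axis) of the 4 collagen genes in 8 operated groups, 1 value each, with dotted lines at 2-fold and open symbols for lower bounds. All 4 genes lie above 2-fold in S-MT at both times and in S-AT and ED at 4 weeks, and Col3a1 lies below the lower line in S-AT, ED and TC at 12 weeks.

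These levels depend on the reference genes. With each of the 5 housekeeping genes alone as reference, Col1a1 in S-MT at 12 weeks was 4.36-fold to 11.7-fold over native and Col1a2 1.75-fold to 4.71-fold. Col1a1 was 2.58-fold to 6.12-fold over native in S-MT at 4 weeks and 3.36-fold to 5.69-fold in S-AT at 4 weeks. With the median of the other targets as reference, set by all detected targets or by the 5 in the plate rows of the collagens, 1 collagen in S-MT at 4 weeks was higher than native, and none in S-AT at 12 weeks was lower. Those 5 are Col2a1, Col4a1, Col6a1, Comp and Ctsk, and the 13 detected targets add Fn1, Serpinh1, Anxa5 and Itgb1 among others. Such genes can move with the collagens, and a median over them takes out any change they share. In S-MT at 12 weeks 3 collagens were higher than native with all detected targets as reference and 1 with the 5 in those rows, in place of 4. With Hprt1 alone 2 were lower in S-AT at 12 weeks, and with Rplp1 alone 2 were higher in ED at 4 weeks. In ED and TC at 12 weeks the lower call of Col3a1 was lost with Actb, B2m or Hprt1 alone.

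The question of sustained expression was addressed by setting 12 over 4 weeks. In S-MT 3 collagens were higher at 12 weeks, against 36.4% of targets. Relative to the mean of Ldha and Rplp1, the Col1a1 level was 2.88 at 12 weeks and 1.21 at 4 weeks, a fold of 2.37. Col3a1 was at 8.67 at 12 weeks and 3.77 at 4 weeks, a fold of 2.30. Col5a1 was at 0.250 at 12 weeks and 0.106 at 4 weeks, a fold of 2.37. Col1a2 was 1.51-fold, short of the limit, at 20.2 at 12 weeks and 13.3 at 4 weeks. With single housekeeping genes as reference the fold of Col1a1 in S-MT ran over 0.799 to 2.40, so its direction was not settled by these data.

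In S-AT all 4 collagens were lower at 12 weeks, where 75.4% of targets were lower. Col1a1 was at 0.109 at 12 weeks and 1.41 at 4 weeks, a fold of 0.0775. Col1a2 was at 0.905 at 12 weeks and 19.3 at 4 weeks, a fold of 0.0468. Col3a1 was 0.0601-fold and Col5a1 0.0419-fold. Each of the 5 housekeeping genes alone kept all 4 more than 2-fold lower, from 0.0405-fold to 0.230-fold for Col1a1. The Ct of the 4 genes was 2.53 to 3.42 cycles later at 12 weeks, and the other targets in the same plate rows were 2.45 cycles later in the median of 12 wells. The targets in plate rows F and G were earlier, with a median change of -0.53 cycles over 20 wells, and the PCR control wells were 4.82 cycles later. The part of these plate differences in the collagen values was not tested. With the median of the other targets in the collagen rows as reference, the log2 fold was -0.85 for Col1a1, -1.58 for Col1a2, -1.22 for Col3a1 and -1.74 for Col5a1.

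In ED 3 collagens were lower at 12 weeks, where 16.9% of targets were lower. A target past the cut-off at 4 weeks cannot be called lower, and of the 42 targets measured at both times 14 were lower. Col3a1 was the furthest, at 0.442 at 12 weeks and 5.90 at 4 weeks, a fold of 0.0748. Col1a1 was 0.233-fold, Col1a2 0.278-fold and Col5a1 0.639-fold. Ldha and Rplp1 disagree in this group: Ldha crossed 2.26 cycles after Rplp1 in ED at 12 weeks and 5.69 cycles after it at 4 weeks. With Rplp1, Actb, B2m or Hprt1 alone or all 5 housekeeping genes as reference, Col3a1 was the 1 collagen still lower in ED, and with single genes Col1a1 ran over 0.0708-fold to 1.35-fold. In TC 2 collagens were lower at 12 weeks, Col1a2 at 0.389-fold and Col3a1 at 0.303-fold, where 7.69% of targets were lower. Of the 23 targets measured at both times in TC, 4 were lower. Col1a1 in TC was 0.712-fold and Col5a1 1.35-fold. Ldha crossed 2.90 cycles after Rplp1 in TC at 12 weeks and 5.38 cycles after it at 4 weeks, and in TC at 12 weeks Hprt1 crossed at 36.2, past the cut-off. With Actb, B2m or Hprt1 alone as reference the log2 fold of Col3a1 in TC at 12 over 4 weeks changed sign, and with Rplp1 alone neither call was kept.

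The comparison of the 2 scaffolds addressed the role of the transition zone. At 12 weeks all 4 collagens were higher in S-MT than in S-AT, with 90.9% of targets higher, so the collagens went with nearly the whole array. The fold was 26.4 for Col1a1, 22.3 for Col1a2, 33.6 for Col3a1 and 49.5 for Col5a1. The median log2 fold of the 4 genes was 4.90, and that of the 66 targets with a fold, bounds set at the cut-off, was 2.60. Every single housekeeping gene kept the 4 folds above 2, from 8.54 to 27.6 for Col1a1, 7.22 to 23.4 for Col1a2, 10.9 to 35.2 for Col3a1 and 16.0 to 51.8 for Col5a1. With the median of the other detected targets as reference the log2 fold was 0.89 for Col1a1, 0.65 for Col1a2, 1.24 for Col3a1 and 1.80 for Col5a1. With the 5 targets of the collagen rows it was 0.58, 0.33, 0.93 and 1.48 for the same genes, and 1 of the 4 stayed past 2-fold. Both references hold matrix genes such as Col6a1 and Comp, so a change shared with the collagens is taken out of the folds. At 4 weeks no collagen differed by 2-fold between S-MT and S-AT, where 1.75% of targets were higher and 5.26% lower. The folds at 4 weeks were 0.862 for Col1a1, 0.691 for Col1a2, 0.877 for Col3a1 and 0.875 for Col5a1.

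**Figure D3:**
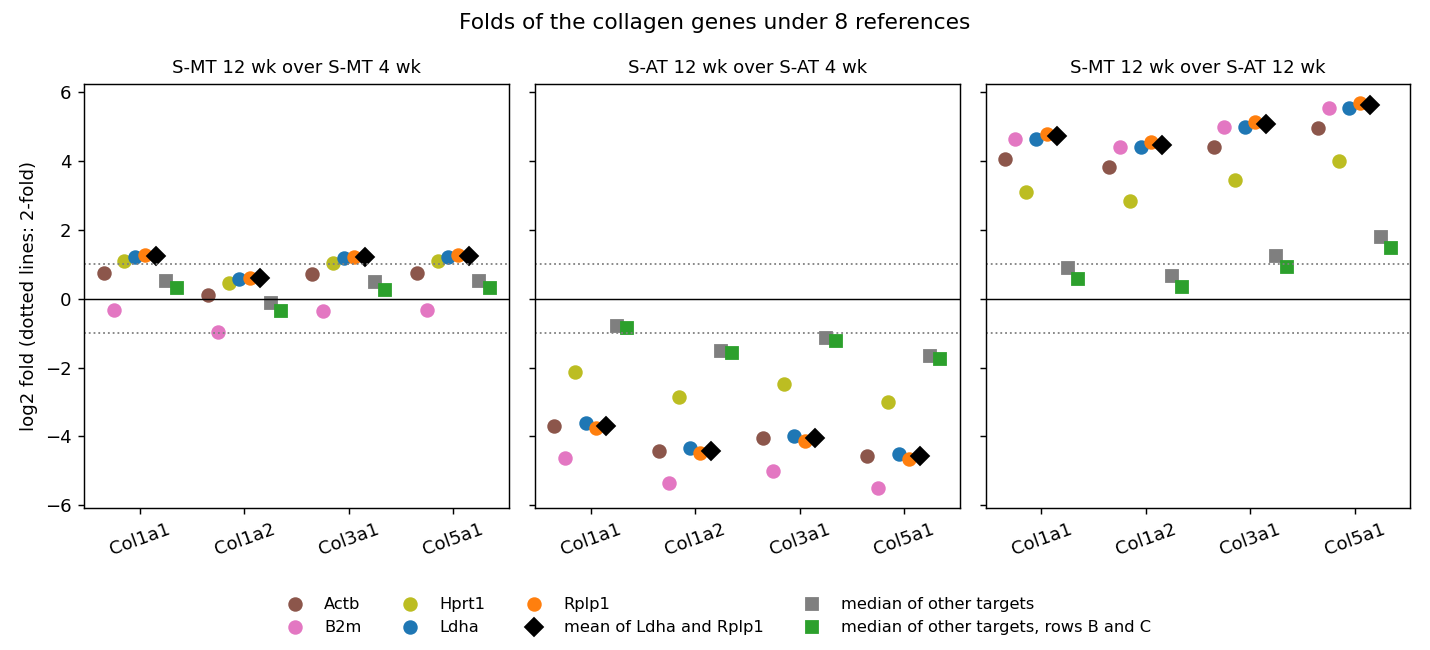
Log2 fold (vertical axis) of the 4 collagen genes in S-MT at 12 over 4 weeks, S-AT at 12 over 4 weeks and S-MT over S-AT at 12 weeks, with each of 5 housekeeping genes, the mean of Ldha and Rplp1 and 2 medians of other targets as reference. S-MT over S-AT lies above the 2-fold line for every housekeeping gene and between 0.33 and 1.80 for the medians, and in S-MT over time the points lie on both sides of 0.

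The unscaffolded groups served as controls of the scaffolds. At 12 weeks all 4 collagens were higher in S-MT than in ED (background 22.9%) and than in TC (28.6%). Over ED they were 7.22-fold for Col1a1, 4.43-fold for Col1a2, 19.6-fold for Col3a1 and 2.08-fold for Col5a1, and over TC 7.76-fold, 5.48-fold, 15.0-fold and 3.61-fold for the same genes. With B2m alone as reference the log2 folds of Col1a1, Col1a2 and Col5a1 over ED were -0.58, -1.28 and -2.37. Over TC no collagen was 2-fold higher with Actb, B2m or Hprt1 alone; Hprt1, itself past the cut-off in TC, gave a log2 fold of -2.13 for Col5a1, and all 5 housekeeping genes together left 1 collagen higher. In S-AT 3 collagens were lower than in ED at 12 weeks (background 88%) and 4 lower than in TC (76.7%). Col5a1 in S-AT was 0.042-fold of ED and 0.073-fold of TC, the furthest of the 4 in both. Those are log2 folds of -4.57 and -3.78, near the medians of -4.33 and -3.49 over all targets with a fold, bounds set at the cut-off. The other collagens were less far down than these medians. Col5a1 lay at or behind the genomic DNA well in ED and TC at 12 weeks. In TC at 12 weeks Col1a1 and Col3a1 lay behind that well too. In ED over TC at 12 weeks no collagen passed 2-fold, where 31.3% of targets were higher and 8.43% lower.

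At 4 weeks the order of S-MT, S-AT and ED depended on the reference gene. With the mean of Ldha and Rplp1, no collagen passed 2-fold in S-MT over ED, where 22.6% of targets were higher and 17% lower, or in S-AT over ED, with 21.1% and 10.5%. With Ldha alone all 4 were lower in S-MT than in ED and in S-AT than in ED, with log2 folds of Col1a1 of -1.77 and -1.58. With Rplp1 alone 2 collagens were higher in S-AT than in ED. Against TC, 2 collagens were higher in S-MT (background 31.4%), 4 in S-AT (30.4%) and 3 in ED (28.6%). Of the 24 targets measured on both sides, S-MT had 12 higher, S-AT 13 and ED 12. Col1a1 was 2.33-fold in S-MT, 2.70-fold in S-AT and 3.29-fold in ED over TC. The shared TC samples enter all 3 of these values.

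Differences between the collagens within one group need no reference gene. Ct of Col1a1 minus Ct of Col1a2 was 2.81 in S-MT, 3.05 in S-AT, 3.51 in ED and 3.31 in TC at 12 weeks. At 4 weeks it was 3.46 in S-MT, 3.78 in S-AT, 3.26 in ED and 4.18 in TC, and in native tissue 4.12. The range over 9 groups was 1.37 cycles, a factor of 2.59, and S-MT at 12 weeks was the lowest. From 12 against 4 weeks the difference changed by -0.65 cycles in S-MT, -0.73 in S-AT, -0.87 in TC and 0.25 in ED. The highest well-to-well SD of such a change over 4 wells was 0.176 cycles, and the spread between animals is unknown. The pair Col1a1 and Col1a2 had an SD of 0.46 cycles over the groups, rank 2 of 120 pairs among 16 targets detected in all groups, whose median SD was 1.64. Col1a1 and Col1a2 sit in the adjacent wells B10 and B11, and the part of plate position was not tested.

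Type III against type I collagen moved more. Ct of Col3a1 minus Ct of Col1a1 was -1.59 in S-MT, -1.24 in S-AT, -0.14 in ED and -0.64 in TC at 12 weeks. At 4 weeks it was -1.63 in S-MT, -1.61 in S-AT, -1.78 in ED and -1.87 in TC, and in native tissue -2.42. The 4 groups at 4 weeks lay within 0.3 cycles of each other. At 12 weeks Col3a1 had lost 1.64 cycles on Col1a1 in ED and 1.23 in TC, against 0.37 in S-AT and 0.04 in S-MT. In terms of Col3a1 per Col1a1, ED was at 0.322 and TC at 0.426 of its 4-week value, S-AT at 0.775 and S-MT at 0.969. Native tissue had the most Col3a1 per Col1a1 of the 9 groups. In ED at 12 weeks both genes lay within 2 cycles of the genomic DNA well and in TC at 12 weeks both lay behind it, and the part of genomic DNA in these differences was not tested.

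Ct of Col5a1 minus Ct of Col1a1 was 3.52 in S-MT, 4.43 in S-AT, 1.73 in ED and 2.42 in TC at 12 weeks. At 4 weeks it was 3.52 in S-MT, 3.54 in S-AT, 3.19 in ED and 3.34 in TC. In native tissue it was 4.32 with Col5a1 past the cut-off. In S-MT the values at the 2 times differed by 0.003 cycles, while S-AT at 12 weeks was 0.89 cycles above its 4-week value. ED and TC at 12 weeks were lower than at 4 weeks by 1.46 and 0.92 cycles, with Col5a1 at or behind the genomic DNA well in both.

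**Figure D4:**
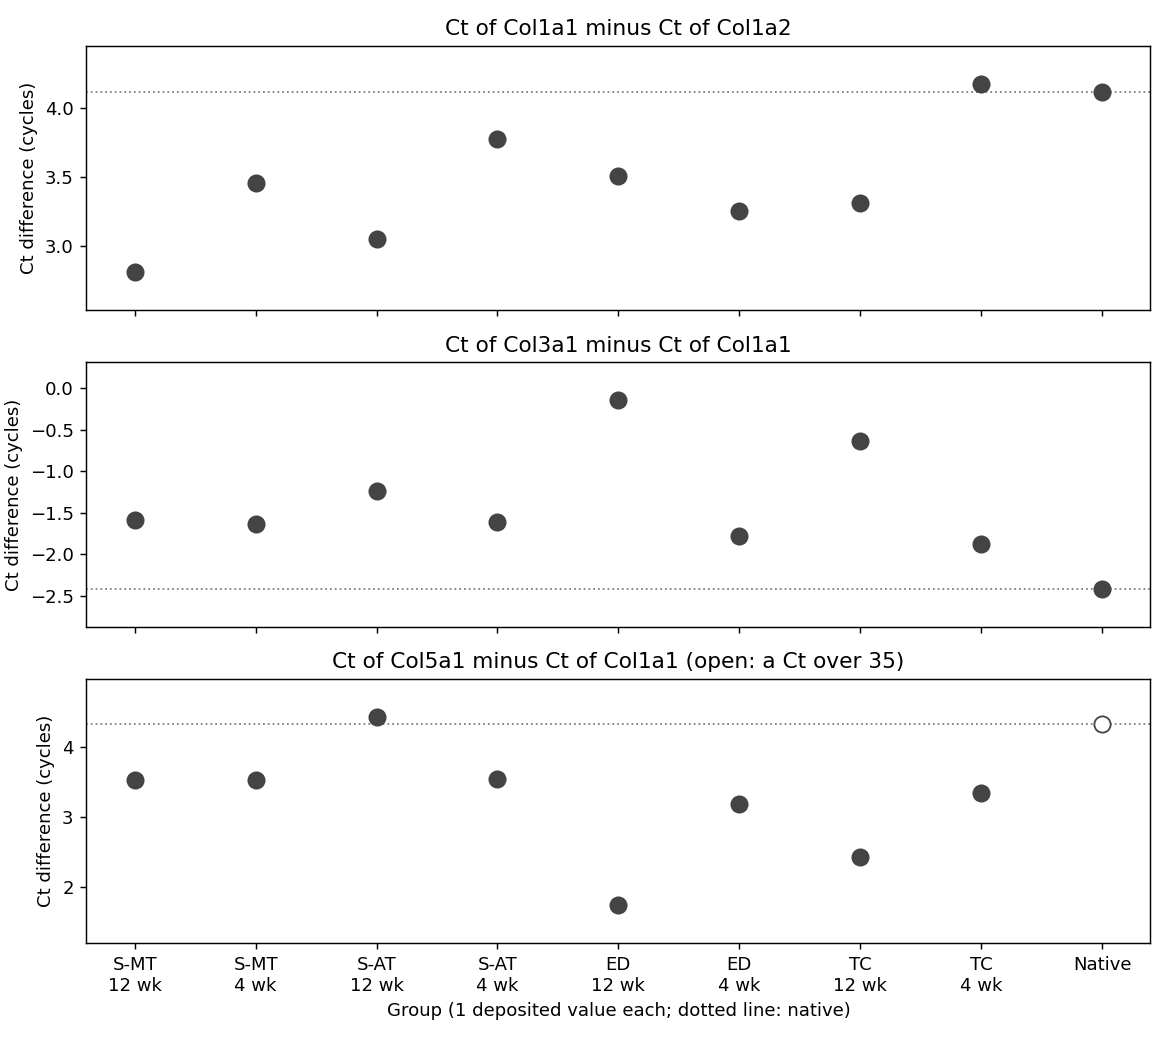
Ct differences in cycles (vertical axes) of Col1a1 minus Col1a2, Col3a1 minus Col1a1 and Col5a1 minus Col1a1 in 9 groups, 1 value each, with the native value as a dotted line. Col3a1 minus Col1a1 lies between -1.87 and -1.61 in the 4 groups at 4 weeks and reaches -0.14 in ED at 12 weeks.

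The genes whose Ct stayed nearest to a collagen over the groups were found among the 13 other targets detected in all groups, as a description over 9 single values that share plates and reference tissue. Anxa5, a calcium-dependent membrane-binding protein, came first for Col1a1, Col1a2 and Col3a1, with SDs of the Ct difference of 0.52, 0.35 and 0.55 cycles. Col6a1, a chain of pericellular type VI collagen, came second for Col1a1 and Col1a2 and first for Col5a1, with SDs of 0.79, 0.75 and 0.83. Itgb1, an integrin beta chain that pairs with collagen-binding alpha chains, was the third for Col1a1, Col1a2 and Col3a1. Fn1, which encodes fibronectin, was second for Col3a1 with an SD of 0.79, and Col4a1 of basement membranes was the third for Col5a1 with 1.28. Without native tissue, where Col5a1 was past the cut-off, Fn1 came first for Col3a1 with 0.54 and Anxa5 next with 0.58. For Col5a1 the SD was then 0.36 to Col6a1 and 0.59 to Col4a1, which came second. Col4a1, Col5a1 and Col6a1 sit in the adjacent wells C02, C03 and C04, and the part of plate position in these SDs was not tested.

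The gene lists were made with earlier results of these data known. Of 25 listed genes on the array, 21 of 23 with a fold were higher in S-MT than in S-AT at 12 weeks. Of these 23, 0 were lower, and the median log2 fold was 3.83, against 2.60 and 90.9% higher over all targets. Serpinh1, a chaperone that folds procollagen, had a log2 fold of 1.49 and Bmp1, the protease that trims the procollagen C end, 4.29. Of the 6 TGF-beta ligands and receptors, which induce collagen transcription in many cells, 4 were higher in that comparison, with a median of 1.31. In S-AT at 12 over 4 weeks, 17 of 23 listed genes were lower and 0 higher, a share close to the 75.4% of all targets, and none of the 6 TGF-beta genes was past 2-fold, with a median of -0.44. In ED at 12 over 4 weeks 5 of the 6 TGF-beta genes were higher and 0 lower, where 67.5% of all targets were higher. Col1a1, Col1a2 and Col3a1 were lower there, but only Col3a1 with Rplp1, Actb, B2m or Hprt1 alone or all 5 housekeeping genes. In ED at 12 weeks 6 of the 84 targets were 1 cycle or more ahead of the genomic DNA well, these 3 collagens among them. The part of genomic DNA in the other values was not tested. Fn1 had a log2 fold of -3.47 in ED at 12 over 4 weeks. Bgn, the small proteoglycan biglycan of collagen fibrils, had -2.86. The proteases differed within the list in ED: Ctsk, the collagen-degrading cathepsin K, had 2.08 and Mmp2 -2.51. In S-MT at 12 over 4 weeks 9 of 23 listed genes were higher and 0 lower, near the 36.4% of all targets, among them Ctsk at 1.36 and Col6a1 at 1.17.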

How the data were processed

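The osteogenesis RT-qPCR array was read by the authors as Ct per well (SYBR Green, CFX 96), deposited as 1 value per gene and group. The second table holds the authors' normalized values, a linear ratio of 2 to the power of the negative Ct difference to the mean of Ldha and Rplp1, with a cut-off of 35. A further table holds the authors' own fold changes and was not used. Folds were recomputed from Ct in Python 3.11.15 with pandas 2.3.3 and numpy 2.4.6: Ct over 35 or undetermined was set to 35, both over 35 gave no fold, 1 over 35 a bound, and 2-fold was the limit. Late wells lose precision, and a change of reference genes shifts every gene of a comparison equally. Groups came from the labels, giving 24 comparisons. Calculations were tested on simulated data. The members and lists were chosen with earlier results of these data known. Named genes are the 4 members, the 3 targets with the smallest SD of Ct difference to each, listed collagen-biology genes, and control wells. Promoter windows came from RefSeq tables matched by symbol; all 4 accessions matched. No sequence is shown for Col1a1 and Col3a1. Depth does not apply to Ct values.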

Additional observations from a re-analysis of the deposited data

Results flagged for a closer look

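The change at 12 over 4 weeks ran in opposite directions past 2-fold in different treatments, and no test of these differences was possible with 1 value per group and time. On the log2 scale, S-MT minus S-AT was 4.94 for Col1a1, 5.26 for Col3a1 and 5.82 for Col5a1. S-MT minus ED was 3.35 for Col1a1 and 4.94 for Col3a1, and S-MT minus TC was 2.92 for Col3a1. Other references undo the opposite directions. With B2m alone the 3 collagens that were higher over time in S-MT changed sign. For Col3a1 the log2 fold over time was 1.05 in S-MT and 2.19 in TC with Hprt1 alone, 0.71 in S-MT and 0.98 in TC with Actb alone, and 0.028 in TC with all 5 housekeeping genes. In ED, Col1a1 had a log2 fold over time of 0.43 with Actb alone.

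The genomic DNA control well, which enters no fold, crossed more than 1 cycle earlier than in native tissue (Ct 34.9) in 4 groups. It crossed at Ct 30.9 in S-MT at 12 weeks, 32.5 in S-AT at 4 weeks, 29.2 in ED at 12 weeks and 30.4 in TC at 12 weeks.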

How the results depend on the processing

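No paired analysis was possible because each group has 1 value, and for the same reason no replicate could be left out. The authors' normalized values changed none of the 48 counts of collagens past 2-fold. Leaving out the cut-off changed 2 of them by 1 gene, to 4 lower in S-AT at 12 weeks over native (3) and 3 higher in TC at 4 weeks over native (2). Values are listed for counts that moved by over 1.5 times. Counting smaller changes too, the number changed was 8 with Ldha, 12 with Rplp1, 14 with all 5 housekeeping genes, 18 with the median of other targets, 10 with a cut-off of 33, 4 with an amplification of 1.9 and 11 with a limit of 3-fold. The ranges of the Ct differences between collagens stayed within 1.5 times under every alternative run for them, including those without ED or S-AT at 12 weeks. In the lines that follow, the count with the mean of Ldha and Rplp1 stands in brackets and single-gene values are log2 folds; the cause of each change was not tested beyond the equal shift that another reference gives to every gene. With Ldha alone, the genes higher numbered 0 in S-MT over TC at 4 weeks (2), 0 in S-AT over TC at 4 weeks (4) and 4 in TC at 4 weeks over native (2). With Ldha alone, the genes lower numbered 4 in S-MT over ED at 4 weeks (0) and 4 in S-AT over ED at 4 weeks (0). Sign changes with Ldha alone were found for Col5a1 -0.072 in S-MT over TC at 4 weeks, Col1a2 -0.11 in S-AT over TC at 4 weeks. With Rplp1 alone, the genes higher numbered 0 in TC at 4 weeks over native (2), 1 in ED at 12 over 4 weeks (0), 1 in TC at 12 over 4 weeks (0), 1 in ED over TC at 12 weeks (0), 2 in ED at 12 weeks over native (1), 2 in ED at 4 weeks over native (4) and 2 in S-AT over ED at 4 weeks (0). Also with Rplp1 alone, those higher numbered 4 in S-MT over TC at 4 weeks (2). With Rplp1 alone, the genes lower numbered 0 in TC at 12 over 4 weeks (2) and 1 in ED at 12 over 4 weeks (3). Sign changes with Rplp1 alone were found for Col1a1 -0.13 and Col1a2 -0.069 in TC at 4 weeks over native. With all 5 housekeeping genes, the genes higher numbered 0 in TC at 4 weeks over native (2), 0 in S-MT at 12 over 4 weeks (3), 1 in S-MT over TC at 12 weeks (4), 2 in TC at 12 over 4 weeks (0), 2 in S-MT over ED at 12 weeks (4), 3 in ED at 12 weeks over native (1) and 3 in TC at 12 weeks over native (1). With all 5 housekeeping genes, the genes lower numbered 0 in ED at 12 weeks over native (1), 0 in TC at 12 weeks over native (1), 0 in TC at 12 over 4 weeks (2) and 1 in ED at 12 over 4 weeks (3). Sign changes with all 5 housekeeping genes were found for Col3a1 0.26 in TC at 12 weeks over native, Col1a2 0.39 and Col3a1 0.029 in TC at 12 over 4 weeks, Col5a1 -0.64 in S-MT over ED at 12 weeks, Col5a1 -0.30 in S-MT over TC at 12 weeks. With the median of other targets, the genes higher numbered 0 in TC at 12 weeks over native (1), 0 in S-MT at 12 over 4 weeks (3), 0 in S-MT over TC at 4 weeks (2), 0 in S-AT over TC at 4 weeks (4), 0 in ED over TC at 4 weeks (3), 1 in S-MT at 4 weeks over native (4) and 1 in S-AT at 12 weeks over native (0). Also with the median of other targets, those higher numbered 1 in S-AT over ED at 12 weeks (0), 1 in S-AT over TC at 12 weeks (0) and 2 in S-MT over S-AT at 12 weeks (4). With the median of other targets, the genes lower numbered 0 in S-AT at 12 weeks over native (3), 1 in S-AT over ED at 12 weeks (3) and 1 in S-AT over TC at 12 weeks (4). Sign changes with the median of other targets were found for Col1a1 1.07 and Col1a2 0.0006 in S-AT at 12 weeks over native, Col5a1 -0.075 in S-MT over ED at 12 weeks, Col1a1 0.83 and Col1a2 0.36 in S-AT over ED at 12 weeks, Col1a1 0.79, Col1a2 0.53 and Col3a1 1.39 in S-AT over TC at 12 weeks. With a cut-off of 33, the genes higher numbered 0 in ED at 12 weeks over native (1), 0 in TC at 12 weeks over native (1) and 1 in S-MT over TC at 4 weeks (2). With an amplification of 1.9 per cycle, the genes higher numbered 1 in TC at 4 weeks over native (2) and 1 in S-MT over TC at 4 weeks (2). With a limit of 3-fold, the genes higher numbered 0 in TC at 12 weeks over native (1), 0 in TC at 4 weeks over native (2), 0 in S-MT at 12 over 4 weeks (3), 0 in S-MT over TC at 4 weeks (2) and 0 in S-AT over TC at 4 weeks (4). With a limit of 3-fold, the genes lower numbered 0 in TC at 12 weeks over native (1) and 1 in TC at 12 over 4 weeks (2).

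Further references were chosen after seeing the data: Actb, B2m and Hprt1 alone, and the median Ct of Col2a1, Col4a1, Col6a1, Comp and Ctsk, the 5 other detected targets in the plate rows of the collagens. The last of these moved 20 of the 48 counts by over 1.5 times and changed 24 at all, the most of any setting run, against 21 changed with Actb, 21 with B2m and 15 with Hprt1. It shifted the log2 folds by -4.14 to 2.84. With Actb alone, the genes higher numbered 0 in TC at 4 weeks over native (2), 0 in S-MT at 12 over 4 weeks (3), 0 in S-MT over ED at 12 weeks (4), 0 in S-MT over TC at 12 weeks (4), 0 in S-MT over TC at 4 weeks (2), 1 in S-MT at 4 weeks over native (4) and 1 in ED at 12 over 4 weeks (0). Also with Actb alone, those higher numbered 2 in S-AT over TC at 4 weeks (4), 3 in ED at 12 weeks over native (1), 3 in TC at 12 weeks over native (1) and 3 in TC at 12 over 4 weeks (0). With Actb alone, the genes lower numbered 0 in ED at 12 weeks over native (1), 0 in TC at 12 weeks over native (1), 0 in TC at 12 over 4 weeks (2), 1 in ED at 12 over 4 weeks (3), 2 in S-MT over ED at 12 weeks (0), 2 in S-MT over TC at 12 weeks (0) and 2 in S-MT over ED at 4 weeks (0). Sign changes with Actb alone were found for Col3a1 0.52 in ED at 12 weeks over native, Col3a1 0.96 in TC at 12 weeks over native, Col1a1 0.43 and Col1a2 0.68 in ED at 12 over 4 weeks, Col1a2 1.34 and Col3a1 0.98 in TC at 12 over 4 weeks. Further sign changes with Actb alone were found for Col1a1 -0.67, Col1a2 -1.37 and Col5a1 -2.46 in S-MT over ED at 12 weeks, Col1a1 -0.61, Col1a2 -1.11 and Col5a1 -1.72 in S-MT over TC at 12 weeks. With B2m alone, the genes higher numbered 0 in TC at 4 weeks over native (2), 0 in S-MT at 12 over 4 weeks (3), 0 in S-MT over ED at 12 weeks (4), 0 in S-MT over TC at 12 weeks (4), 1 in ED at 12 over 4 weeks (0), 1 in ED over TC at 12 weeks (0) and 2 in TC at 12 over 4 weeks (0). Also with B2m alone, those higher numbered 3 in ED at 12 weeks over native (1), 3 in TC at 12 weeks over native (1) and 4 in S-MT over TC at 4 weeks (2). With B2m alone, the genes lower numbered 0 in ED at 12 weeks over native (1), 0 in TC at 12 weeks over native (1), 0 in TC at 12 over 4 weeks (2), 1 in ED at 12 over 4 weeks (3), 1 in S-MT over TC at 12 weeks (0), 1 in S-AT over ED at 4 weeks (0) and 2 in S-MT over ED at 12 weeks (0). Sign changes with B2m alone were found for Col3a1 0.60 in ED at 12 weeks over native, Col3a1 0.76 in TC at 12 weeks over native, Col1a1 -0.32, Col3a1 -0.37 and Col5a1 -0.33 in S-MT at 12 over 4 weeks, Col1a2 0.11 in ED at 12 over 4 weeks. Further sign changes with B2m alone were found for Col1a2 0.78 and Col3a1 0.42 in TC at 12 over 4 weeks, Col1a1 -0.58, Col1a2 -1.28 and Col5a1 -2.37 in S-MT over ED at 12 weeks, Col1a1 -0.25, Col1a2 -0.75 and Col5a1 -1.35 in S-MT over TC at 12 weeks. With Hprt1 alone, the genes higher numbered 0 in TC at 4 weeks over native (2), 0 in S-MT over TC at 12 weeks (4), 2 in ED at 12 weeks over native (1), 2 in S-MT over ED at 12 weeks (4), 4 in TC at 12 weeks over native (1) and 4 in TC at 12 over 4 weeks (0). With Hprt1 alone, the genes lower numbered 0 in ED at 12 weeks over native (1), 0 in TC at 12 weeks over native (1), 0 in TC at 12 over 4 weeks (2), 1 in ED at 12 over 4 weeks (3), 3 in S-MT over TC at 12 weeks (0) and 4 in ED over TC at 12 weeks (0). Sign changes with Hprt1 alone were found for Col3a1 2.04 in TC at 12 weeks over native, Col1a2 2.55 and Col3a1 2.19 in TC at 12 over 4 weeks, Col5a1 -0.49 in S-MT over ED at 12 weeks, Col1a1 -1.02, Col1a2 -1.52, Col3a1 -0.071 and Col5a1 -2.13 in S-MT over TC at 12 weeks. With the rows B and C targets, the genes higher numbered 0 in TC at 12 weeks over native (1), 0 in S-MT at 12 over 4 weeks (3), 0 in S-MT over TC at 4 weeks (2), 0 in S-AT over TC at 4 weeks (4), 0 in ED over TC at 4 weeks (3), 1 in S-MT at 12 weeks over native (4) and 1 in S-MT at 4 weeks over native (4). Also with the median of the rows B and C targets, those higher numbered 1 in ED at 4 weeks over native (4), 1 in S-MT over S-AT at 12 weeks (4), 1 in S-AT over ED at 12 weeks (0), 1 in S-AT over TC at 12 weeks (0), 1 in S-AT over ED at 4 weeks (0), 2 in S-MT over ED at 12 weeks (4) and 2 in S-MT over TC at 12 weeks (4). Also with the median of the rows B and C targets, those higher numbered 4 in TC at 4 weeks over native (2). With the rows B and C targets, the genes lower numbered 0 in S-AT at 12 weeks over native (3), 1 in S-AT over ED at 12 weeks (3), 1 in S-AT over TC at 12 weeks (4), 1 in S-MT over TC at 4 weeks (0) and 1 in ED over TC at 4 weeks (0). Sign changes with the median of the rows B and C targets were found for Col1a1 0.81 in S-AT at 12 weeks over native, Col5a1 -0.40 in S-MT over ED at 12 weeks, Col5a1 -0.034 in S-MT over TC at 12 weeks, Col1a1 0.82 and Col1a2 0.36 in S-AT over ED at 12 weeks. Further sign changes with the median of the rows B and C targets were found for Col1a1 0.49, Col1a2 0.23 and Col3a1 1.09 in S-AT over TC at 12 weeks, Col1a1 -0.46 and Col5a1 -0.64 in S-MT over TC at 4 weeks, Col1a2 -0.29, Col3a1 -0.15 and Col5a1 -0.083 in S-AT over TC at 4 weeks, Col1a1 -0.38, Col3a1 -0.46 and Col5a1 -0.22 in ED over TC at 4 weeks.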
